A study of Saccharomyces cerevisiae with 93 samples.

Results

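Yeast cells that carried 1 copy of human alpha-synuclein were compared with vector control cells before the gene was induced. The comparison rests on the 3 arrays of a 93-array series whose titles set 1-copy against vector cells at 0 h, and all 6377 probes of those arrays are described. Each array was a dual-colour hybridisation of 1 RNA pair, with 1-copy RNA in Cy5 and vector RNA in Cy3, and the labels describe the 3 arrays of a comparison as pairs of biological replicates. The series followed 1-copy, 2-copy and vector cells at 0, 2, 4 and 6 h after transfer to galactose, and it treated 2-copy and vector cells with 6 compounds at 4 h.

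Both strains were grown from single colonies and had received no compound. The label of 1 other array gives the genetic background of 2-copy cells as W303 mata with the marker alleles trp1-1 and ura3-1, mutant alleles of ADE2, CAN1, HIS3 and LEU2, pdr1 and pdr3 replaced by kanMX, and alpha-synuclein fused to Green Fluorescent Protein on pRS304GAL and pRS306GAL. The labels of the 3 arrays described here give no genotype, so that the plasmid of the 1-copy cells, its integration site and the make-up of the vector strain were not known from them. The other groups used beside these arrays were 1-copy over vector at 2, 4 and 6 h, 2-copy over vector at 0 h and 1-copy over 2-copy at 0 h, with 3 arrays each. Alpha-synuclein and its fluorescent tag had no probe on the arrays, and ratios give no absolute level, so that neither the copy number nor the cell type could be checked from an expressed level.

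Alpha-synuclein is a lipid-binding protein that accumulates in the Lewy bodies of Parkinson's disease, and in yeast a high dose of it blocks vesicle traffic from the ER and slows growth. In such strains the gene stands behind a galactose promoter, which is repressed in glucose, inactive in raffinose and switched on by galactose through Gal4. Integrating plasmids of this kind insert at a mutant marker gene of the host and restore it: pRS304 plasmids carry TRP1 and pRS306 plasmids carry URA3. The 0 h arrays set the strains against each other at the time of transfer to galactose.

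The values are log2 ratios of 1-copy over vector RNA. The median ratio lay between 0.0045 and 0.0061 on the 3 arrays, and their SDs across probes were 0.326 on array 1, 0.248 on array 2 and 0.252 on array 3. On array 1, 66 probes lay beyond 1 on the log2 scale, against 32 on array 2 and 26 on array 3. Across probes, which are not independent replicates, Pearson's r was 0.371 between arrays 1 and 2, 0.162 between arrays 1 and 3 and 0.481 between arrays 2 and 3. Spearman's correlation for the same pairs was 0.455, 0.224 and 0.464. Array 1 therefore stood apart in its spread, and arrays 1 and 3 were the least alike. Values are given array by array where this matters.

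Few probes differed between the strains before induction. Called here means an adjusted p under 0.05 in limma's moderated test (two-sided, Benjamini-Hochberg over all probes, 1 mean per group over all 93 arrays). Of 6377 probes, 162 were called (2.54%), of which 39 were higher (0.612%) and 123 lower (1.93%) in 1-copy cells. An unadjusted p under 0.05 was found for 873 probes. Of the 162, 160 had 1 sign on all 3 arrays. The differences were small: the means of the higher probes ran from 0.33 to 0.85 with a median of 0.42, those of the lower probes from -2.22 to -0.27 with a median of -0.48, and 6 probes lay beyond 1 in size, all of them lower. With every array of 1 replicate number left out of the series, the count was 73 without replicate 1, 30 without replicate 2 and 59 without replicate 3. Those fits had fewer arrays per group, so that a lower count does not show which replicate the calls rested on. In a fit to the 3 arrays alone 2 probes were called, and of the 28 genes named by rule from this comparison 12, 9 and 12 were still called without replicates 1, 2 and 3. With each array scaled to a common spread the split was 214 higher and 292 lower, and with array weights 866 higher and 923 lower.

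**Figure D1:**
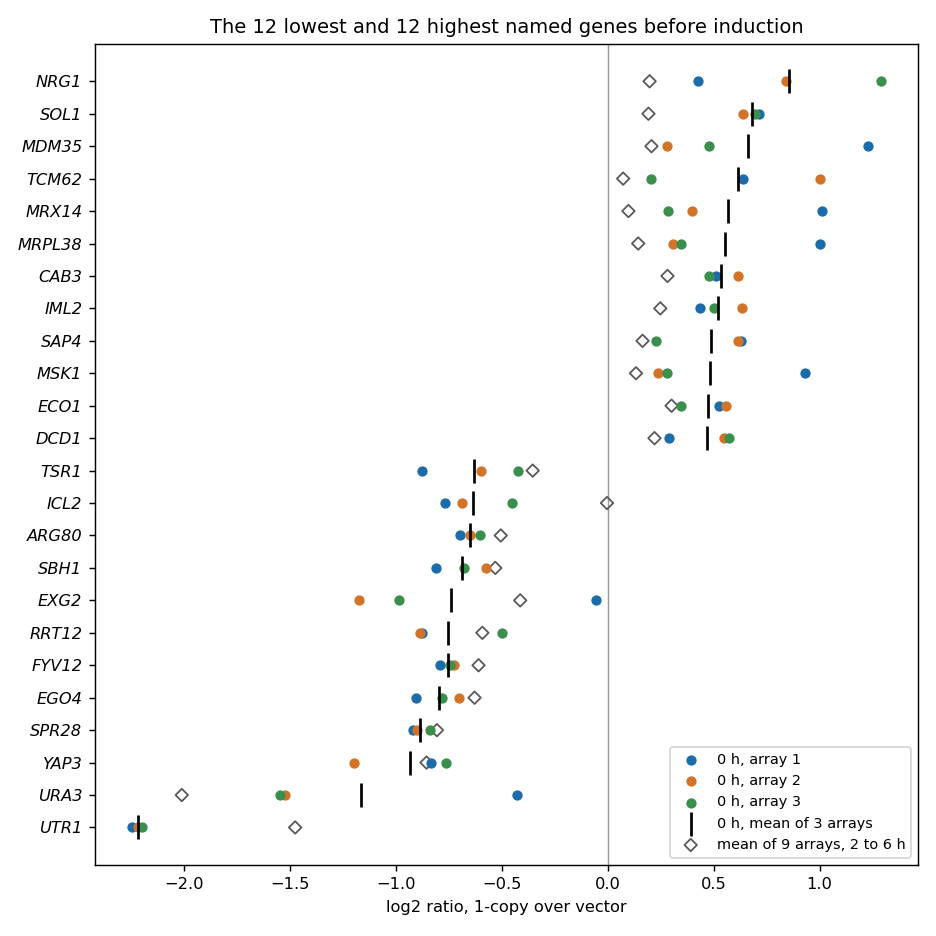
Log2 ratio of 1-copy over vector RNA at 0 h for the 12 lowest and 12 highest genes with a symbol that were called and had 1 sign on all 3 arrays (dots, 1 per array; bars, mean of 3 arrays), with the mean of the 9 arrays at 2 to 6 h (open diamonds). UTR1 lies near -2.2 on each array, URA3 is nearer 0 on array 1 than on arrays 2 and 3, and MDM35, MRX14, MRPL38 and MSK1 are highest on array 1.

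Lowest of all probes was UTR1 (YJR049C, chromosome X), which encodes an NAD kinase that makes NADP. Its log2 ratio was -2.24 on array 1, -2.22 on array 2 and -2.20 on array 3, a mean of -2.22 ± 0.0236 (SD, n = 3; limma adjusted p = 2.4e-08). The 3 arrays were almost identical, and no other probe was as far from 0. It was also lower on the 9 arrays taken after induction, with a mean of -1.47 ± 0.789 (SD, n = 9; adjusted p = 3.05e-11), but not on each of them. At 2 h the arrays gave -2.04, -2.09 and -0.25, at 4 h -2.02, -1.77 and -1.83, and at 6 h 0.00, -1.54 and -1.72. Thus 1 array at 2 h and 1 at 6 h lay close to 0, while the other 7 lay between -2.09 and -1.54.

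The genes beside UTR1 on chromosome X did not share its difference. CYC1, the cytochrome c gene next to it, gave 0.53, 0.54 and -0.26, and ISY1, a splicing factor gene on the other side, gave -0.20, -0.18 and 0.07. ANB1, a gene of hypoxic cells, averaged -0.04 and OSM1, a fumarate reductase gene, 0.03, and none of the 4 was called. The other NAD kinase genes, chosen after their values were seen, were not called at 0 h either: POS5, of mitochondria, averaged -0.07 and YEF1 -0.20. At 2 to 6 h YEF1 was called lower (-0.28, limma adjusted p = 0.000179) and POS5 was not called (-0.15).

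URA3 (YEL021W, chromosome V), the uracil synthesis enzyme used as a marker, had a log2 ratio of -0.43 on array 1, -1.52 on array 2 and -1.55 on array 3. All 3 were below 0, but array 1 lay more than 1 unit from the others, and the mean was -1.17 ± 0.638 (SD, n = 3; limma adjusted p = 0.00274). Without replicate 2 or without replicate 3 it missed the threshold (adjusted p = 0.141 and 0.135), with means of -0.99 and -0.98. On the later arrays URA3 was lower throughout, with -1.74, -1.68 and -1.27 at 2 h, -2.35, -2.13 and -2.29 at 4 h and -1.97, -1.93 and -2.74 at 6 h (mean of 9, -2.01 ± 0.43; adjusted p = 1.55e-17). A change from 0 h was not called for it. Its neighbours differed less: GEA2, a Golgi traffic gene, averaged -0.16, TIM9, of mitochondrial import, 0.39, and PXP1, of peroxisomes, -0.03, none of them called. YEL023C, 2 genes away and with no symbol, gave -0.34, -0.37 and -0.26 (mean -0.32, adjusted p = 0.0139).

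YAP3 (YHL009C, chromosome VIII), a transcription factor gene of the YAP family, gave -0.83, -1.20 and -0.76 at 0 h (mean -0.93 ± 0.232, adjusted p = 2.47e-05). All arrays were clearly below 0, and the p rose to 0.0582 without replicate 2. Later arrays gave -1.22, -1.03 and -0.28 at 2 h, -1.02, -1.09 and -1.09 at 4 h and -1.05, -0.97 and 0.07 at 6 h. Here too, 1 array at 2 h and 1 at 6 h were near 0 and the other 7 were lower. The array at 2 h was replicate 3 for both YAP3 and UTR1. At 6 h it was replicate 3 for YAP3 and replicate 1 for UTR1. PRS3, ETP1 and YHL009W-A beside it averaged between 0.00 and 0.12, and YHL009W-B, a transposon gene, averaged 0.36 (adjusted p = 0.0508).

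UTR1, URA3 and YAP3 were also the 3 genes still called at 0 h when 1 dye coefficient per probe was added to a model of strain and compound differences on all 93 arrays. With the dye term their ratios were -2.14, -2.19 and -1.18. When the same model was fitted to the 39 time-course arrays, URA3 alone was called (-2.06, adjusted p = 0.0355), and UTR1 kept its size (-2.11) at an adjusted p of 0.101.

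Vector and 1-copy cells appear in other comparisons of 0 h. No label says if the same samples were used, so these comparisons may not be independent. UTR1 in 2-copy over vector cells was -0.08, -1.85 and -2.24, and in 1-copy over 2-copy cells -0.82, -0.53 and -0.04. URA3 in 2-copy over vector cells was -1.27, -0.52 and -1.62, and in 1-copy over 2-copy cells 0.02, -0.13 and -0.28. Set side by side, URA3 was below the vector in both alpha-synuclein strains, and between them it lay close to 0. YAP3 was lower in both against vector (2-copy mean -0.76), and the direct arrays of 1-copy over 2-copy cells gave -0.12, -0.96 and -1.37 (mean -0.81). The 1-copy minus 2-copy difference over vector was only -0.17 and was not called. These 2 measures of the same difference were thus unlike in size.

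**Figure D2:**
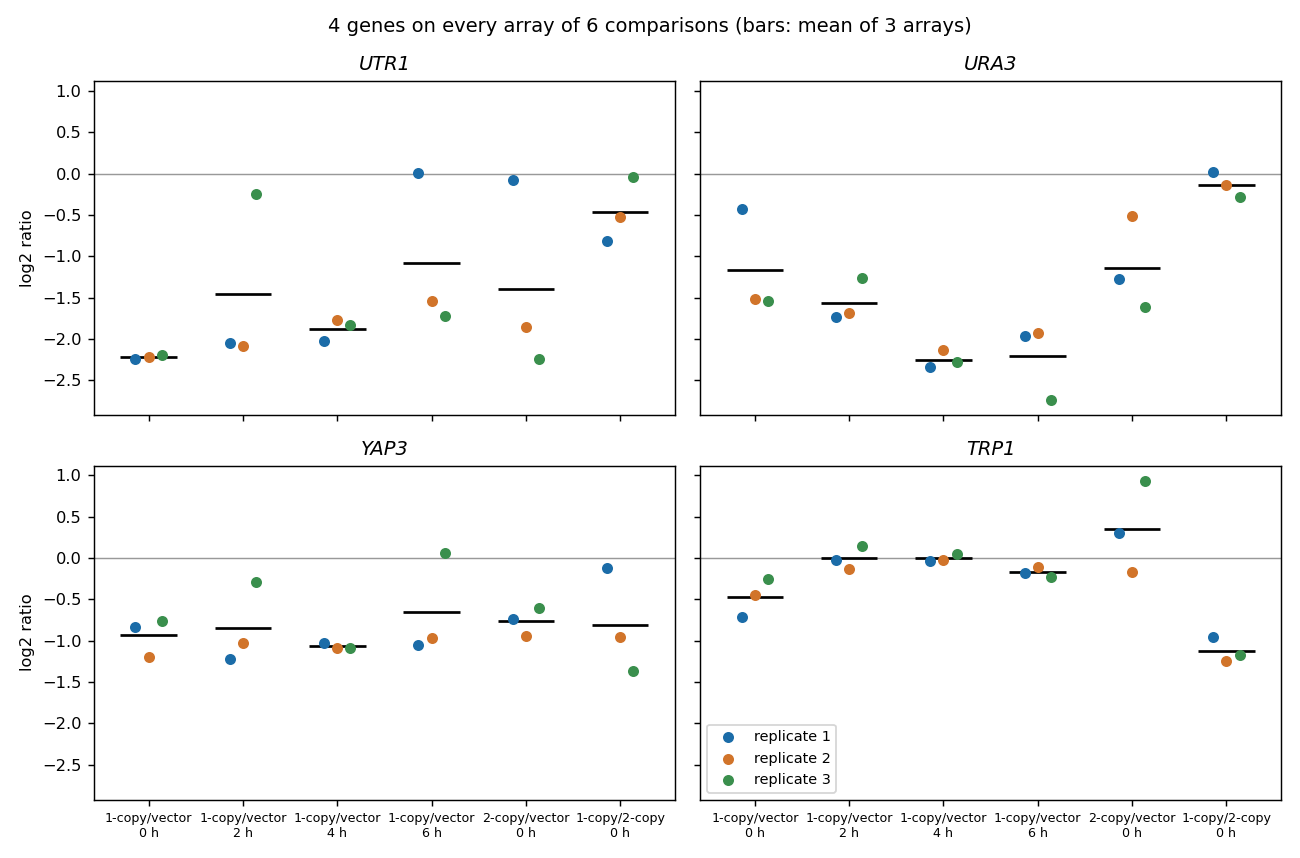
Log2 ratios of UTR1, URA3, YAP3 and TRP1 on every array of 1-copy over vector at 0, 2, 4 and 6 h and of 2-copy over vector and 1-copy over 2-copy at 0 h (dots, 1 per replicate number; bars, mean of 3 arrays). UTR1 is near -2.2 on the 3 arrays of 1-copy over vector at 0 h and near 0 on single arrays elsewhere, while TRP1 is near -1.1 only in 1-copy over 2-copy cells.

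TRP1, the tryptophan marker gene, gave -0.72, -0.45 and -0.25 in 1-copy over vector cells at 0 h. The mean of -0.47 ± 0.235 was not called (limma adjusted p = 0.374), and from 2 to 6 h the mean of 9 arrays was -0.06. Against 2-copy cells TRP1 was lower on each 0 h array, at -0.95, -1.25 and -1.17. The other strain marker genes did not pass the threshold. CAN1 averaged 0.34, LEU2 0.23, ADE2 0.04, MET17 -0.06, HIS3 -0.12 and LYS2 -0.26, and the drug pump regulators PDR1 and PDR3 averaged -0.12 and -0.20. RSB1, a lipid translocase gene among the targets of these regulators, was lower on all arrays (-0.61, -0.59 and -0.44; adjusted p = 0.00744). None of the 15 other targets was called, which made 6.25% of the list, against 2.54% of all probes.

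Of 12 genes that respond to galactose, 0 were called before induction, against 2.54% of all probes. At that share a list of 12 can well hold 0 calls, so the count does not set these genes apart. GAL1, the galactokinase, gave 0.39, -0.10 and -0.59 and GAL7, the uridylyltransferase, 0.99, -0.50 and -0.20. Both spanned 0, with array 1 highest. GAL10 averaged -0.42 ± 0.475, the inducer GAL3 0.39 ± 0.417, the transporter GAL2 -0.01, the activator GAL4 0.00 and the repressor GAL80 0.06. The lowest adjusted p of the 12 was 0.261, at GAL10.

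After UTR1, URA3 and YAP3, the other 13 lower genes named by rule at 0 h had means between -0.88 and -0.42. SPR28, a septin of sporulating cells, gave -0.92, -0.90 and -0.84 (mean -0.88 ± 0.0411, adjusted p = 0.000556), and it stayed lower at 2 to 6 h (-0.81). RRT12, a protease of the spore wall, averaged -0.75, and ZIP1, of the synaptonemal complex of meiosis, gave -0.70, -0.57 and -0.31. SBH1, a subunit of the Sec61 channel through which proteins enter the ER, gave -0.81, -0.57 and -0.68 (adjusted p = 0.000755). NSE4, of the Smc5-Smc6 complex of chromosome repair, gave -0.61, -0.64 and -0.52 (adjusted p = 0.000118). These genes were alike on the 3 arrays, with SDs between 0.0411 and 0.221, and their known roles range from meiosis to secretion. ZIP1 was chosen after its values were seen. For NSE4 the dye term on the time-course arrays was called (-0.39, limma adjusted p = 0.0471). With that term its ratio at 0 h was -0.22 and was not called.

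Further lower genes were EGO4 (-0.79), FYV12 (-0.75), the arginine regulator ARG80 (-0.65), TSR1 of small ribosomal subunit assembly (-0.63), the mitochondrial thiamine pyrophosphate carrier TPC1 (-0.55), the phosphatidylinositol kinase LSB6 (-0.43) and the splicing factor CEF1 (-0.42). EXG2, a cell wall glucanase, was spread more widely, with -0.05 on array 1, -1.17 on array 2 and -0.98 on array 3 (mean -0.74). ICL2, the methylisocitrate lyase of mitochondria, gave -0.77, -0.69 and -0.45 at 0 h (adjusted p = 0.00301) and 0.00 ± 0.11 on the 9 later arrays. It was the exception among the 16 lower genes named by rule at 0 h: the other 15 were called lower at 2 to 6 h as well.

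Many of the lower probes are not genes in current use. Of the 123, 39 (31.7%) matched no gene of the RefSeq table of assembly R64, against 537 of all 6377 probes (8.42%) and 0 of the 39 higher probes. Of the 537 unmatched probes 7.26% were called, all lower, and of the 5840 matched probes 1.44% were called lower. The lowest of the unmatched probes was YPR197C, with -0.32, -2.77 and -2.30 (mean -1.80 ± 1.3, adjusted p = 6.17e-08). That p rests on the spread of the probe pooled over all groups of the series, not on the wide SD of these 3 arrays. YLR232W gave -1.35, -0.98 and -0.91, YBR174C -0.78, -1.20 and -0.84 and YGR265W -0.81, -1.06 and -0.91, so that 3 of these 4 were alike on the arrays and YPR197C was not. Genes with no symbol in the table were low too: YNL033W gave -1.27, -1.12 and -1.23 and YJL218W -0.71, -1.35 and -1.07. These 6 probes were chosen after their values were seen.

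The medians of the 123 lower probes were also below 0 in related comparisons, which share strains and may share samples with the 3 arrays. On the 9 arrays of 2 to 6 h, from the same strains and in the same dye order, 115 (93.5%) were called lower. Of all probes, 10.9% were called at 2 to 6 h with the sign of their 0 h mean. The median of the 123 at 2 to 6 h was -0.35. Their median was -0.40 in 2-copy over vector cells at 0 h and -0.35 in 1-copy over 2-copy cells at 0 h. Single genes departed from these medians, with ICL2 at 0.45 in 1-copy over 2-copy cells and EXG2 at 0.00 in 2-copy over vector cells. The 3 comparisons of 0 h form a loop, in which 1-copy over vector minus 2-copy over vector minus 1-copy over 2-copy is 0 for a real difference in RNA if the same samples were used. For the 123 lower probes the median of this remainder was 0.30, and it was above 0 in 111 (90.2%), against a median of -0.03 and 43.5% for all probes. The remainder contains the ratio on which the probes were called, so that this is a description. For SPR28 the 3 ratios were -0.88, -0.88 and -0.85 and the remainder 0.85, and for SBH1 -0.69, -0.74 and -0.66 with a remainder of 0.70. Of the 3 genes called with the dye term, YAP3 had ratios of -0.93, -0.76 and -0.81 and a remainder of 0.64, while UTR1 and URA3 had remainders of -0.36 and 0.10.

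No single probe had a remainder past the threshold: 0 were called (0%) in limma's test, with 217 at an unadjusted p under 0.05. The dye term fitted to the time-course arrays was called at 18 probes (0.282%), 13 below 0 and 5 above, and 8 of the 18 were among the 162 probes called at 0 h. Its median was -0.22 over the 123 lower probes. On the 18 arrays that set vector cells with a compound against vector cells without, in the same dye order, the median of the 123 was -0.03. Dyes were not swapped in any comparison, so within 1-copy over vector alone a difference between strains and a dye effect of a probe cannot be told apart.

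**Figure D3:**
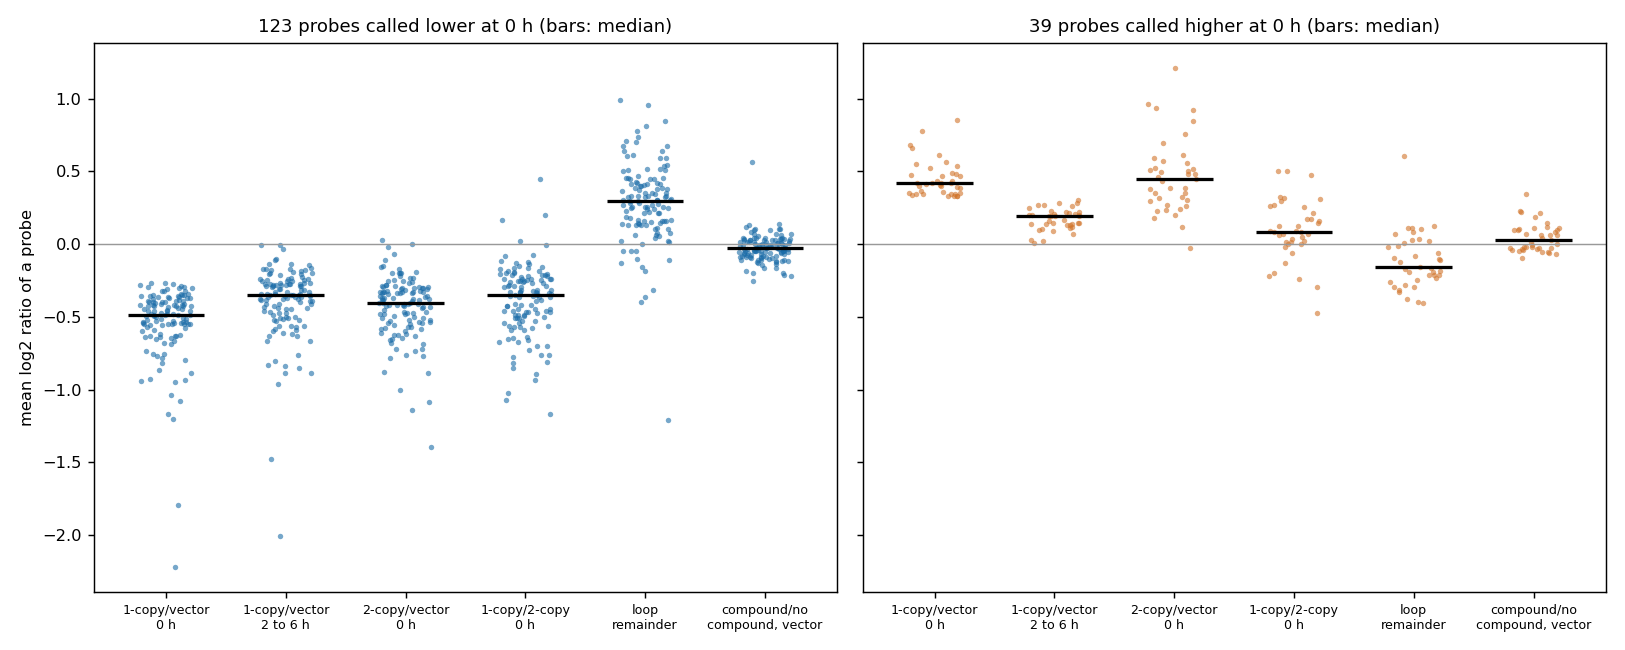
Mean log2 ratios of the 123 probes called lower (left) and the 39 called higher (right) at 0 h, in 1-copy over vector at 0 h and at 2 to 6 h, 2-copy over vector and 1-copy over 2-copy at 0 h, the remainder of that loop, and vector cells with over without compound at 4 h (dots, 1 per probe; bars, median). Medians of the lower probes are -0.48, -0.35, -0.40, -0.35, 0.30 and -0.03 in this order.

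The 39 higher probes had smaller differences and fewer of them lasted. At 2 to 6 h 16 (41.0%) were called higher, against 10.9% of all probes called with the sign of their 0 h mean. The median of the 39 there was 0.19. In 2-copy over vector cells at 0 h their median was 0.45 and in 1-copy over 2-copy cells 0.08. NRG1, a repressor of glucose-repressed genes, was highest, with 0.43, 0.84 and 1.29 (mean 0.85 ± 0.431, adjusted p = 0.0014). Its relative NRG2, chosen after its values were seen, gave 0.25, 0.43 and 0.96 and was not called (adjusted p = 0.0825). NRG1 averaged 0.20 at 2 to 6 h, where it was not called, and at 0 h it missed the threshold without replicate 2 or 3 (adjusted p = 0.061 and 0.195).

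CAB3, of coenzyme A synthesis, was the higher gene with the smallest p: 0.51, 0.61 and 0.48 (mean 0.53 ± 0.0703, adjusted p = 5.92e-05). It was also called at 2 to 6 h, at 0.28. On the time-course arrays its dye term was itself called (0.30, limma adjusted p = 0.0415). With that term the ratio of CAB3 at 0 h was 0.23 and was not called, and its loop remainder was -0.29. SOL1, related to the phosphogluconolactonases of the pentose phosphate pathway, gave 0.71, 0.64 and 0.69 (adjusted p = 0.0406), while EGO4, whose locus tag YNR034W-A follows that of SOL1 (YNR034W), gave -0.90, -0.70 and -0.78. The pair thus differed in opposite directions on all 3 arrays of 0 h. At 2 to 6 h EGO4 was called lower (-0.63), while SOL1 averaged 0.19 and was not called. EGO4 was also below 0 in 2-copy over vector (-0.66) and in 1-copy over 2-copy cells (-0.78) at 0 h, with a loop remainder of 0.64. Cohesin acetyltransferase ECO1 (0.48), deoxycytidylate deaminase DCD1 (0.47), IML2 (0.52) and the phosphatase partner SAP4 (0.49) made up the rest of the 12 genes named by rule together with 5 genes of mitochondria.

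Those 5 were MDM35, of lipid transfer between the membranes (0.66), TCM62, a chaperone for succinate dehydrogenase (0.62), the ribosomal proteins MRX14 (0.57) and MRPL38 (0.55) and the lysyl-tRNA synthetase MSK1 (0.48). MDM35 gave 1.23, 0.28 and 0.48, MRX14 1.01, 0.40 and 0.29 and MSK1 0.93, 0.24 and 0.28. Array 1 was thus highest for these, whereas TCM62 was highest on array 2 (0.64, 1.00 and 0.21). None of the 5 was called at 2 to 6 h, where their means ran from 0.07 to 0.21.

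Array 1 was higher for whole groups of such genes. Over the 76 probes of the mitochondrial ribosome the median was 0.72 on array 1, 0.16 on array 2 and 0.06 on array 3, beside medians of 0.01, 0.00 and 0.01 for all probes. On array 1, 75 of the 76 were above 0, on array 2, 60, and on array 3, 48. Of the 76, 2 were called, both higher (2.63%, against 2.54% of all probes). Assembly factors of the respiratory chain had medians of 0.59, 0.15 and 0.04 over 36 probes, with MSS2, of cytochrome oxidase assembly, called higher (0.57, 0.37 and 0.36; adjusted p = 0.00445). Mitochondrial import and chaperone genes had medians of 0.41, 0.09 and 0.07 over 47 probes, with MDM35 called. Genes of the respiratory chain itself and ATP synthase did not follow this order, with medians of -0.15, -0.01 and 0.11 over 43 probes and 0 called. In 2-copy over vector cells at 0 h the median was 0.70 for the mitochondrial ribosome, 0.45 for assembly factors and 0.46 for import and chaperone genes. In 1-copy over 2-copy cells at 0 h the medians of the same lists were -0.38, -0.28 and -0.24. High values were thus not limited to array 1 of 1-copy over vector.

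Cytosolic ribosomal protein genes went opposite ways on arrays 1 and 3. Their median over 138 probes was 0.66 on array 1, 0.02 on array 2 and -0.31 on array 3, with all but 3 members above 0 on array 1, 77 on array 2 and 21 on array 3, and 0 called. RPS4A had the smallest p of the list, with 1.07, 0.32 and 0.44 (adjusted p = 0.0572). The list median was 0.45 in 2-copy over vector cells at 0 h and -0.20 in 1-copy over 2-copy cells at 0 h. Genes of ribosome assembly in the nucleolus had medians of -0.27, -0.04 and -0.10 over 94 probes. RRP43, of the RNA exosome, was called lower among them (-0.69, -0.43 and -0.46; adjusted p = 0.00698).

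Transcripts of mitochondrial DNA, a list made after its values were seen, had the widest range of medians of the lists plotted. Their median over 19 probes was 0.72 on array 1, -0.49 on array 2 and 0.13 on array 3. ATP6, a subunit of ATP synthase, gave 1.47, -3.04 and -1.12, and OLI1, another subunit, 1.75, -2.65 and -1.76. The arrays disagreed in sign for both, and neither was called. The maturase genes BI2 (1.01, -0.13 and 0.42) and BI3 (0.14, 0.37 and 0.70), which lie in introns of COB, were called higher, with adjusted p of 0.0458 and 0.0217. They were the only 2 of the 19 called (10.5%, against 2.54% of all probes).

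Over the 15 copper probes the medians were -0.02 on array 1, 0.02 on array 2 and 0.14 on array 3. Array 1 was thus not high for the list, only for single members such as CTR1 and COX17. CTR1, the copper transporter of the plasma membrane, gave 1.88, 0.43 and 0.14 (mean 0.82 ± 0.929, adjusted p = 0.132) and COX17, the copper chaperone of cytochrome oxidase, 1.40, 0.02 and 0.40 (mean 0.60). Both lay above 0 on all arrays without being called, and 0 of the 15 copper probes were. In 2-copy over vector cells at 0 h, CTR1 averaged 2.15 and COX17 1.44, and in 1-copy over 2-copy cells -1.25 and -0.63.

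Genes of protein folding and stress, which alpha-synuclein toxicity is known to affect, gave small differences before induction. The general stress genes had medians of 0.20, 0.17 and 0.38 over 37 probes and the cytosolic heat shock genes 0.14, 0.22 and 0.13 over 31 probes. These 2 of the 41 lists had medians beyond 0.1 on the same side on all 3 arrays, yet 0 of their members were called, against 2.54% of all probes. SSA1, a cytosolic Hsp70, gave 0.53, 0.58 and 0.71 (adjusted p = 0.272) and HSP78, a mitochondrial disaggregase, 1.29, 0.22 and 0.36. ER chaperones and genes of the unfolded protein response had medians of 0.07, 0.02 and 0.02 over 27 probes, those of ER to Golgi transport 0.05, 0.05 and -0.02 over 42 probes and the proteasome -0.21, 0.03 and 0.07 over 36 probes, each with 0 called.

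Across metabolism, glyoxylate cycle and gluconeogenesis genes had medians of -0.26, -0.29 and 0.15 over 23 probes and peroxisome and fatty acid oxidation genes -0.23, -0.16 and 0.13 over 25 probes, with 0 called in either. Both were below 0 on arrays 1 and 2 and above 0 on array 3. CAT2, the carnitine acetyltransferase, gave -0.61, -1.15 and -0.01 and ACS1, an acetyl-CoA synthetase, -1.25, -0.83 and 0.59. Ergosterol genes had medians of -0.12, -0.08 and -0.13 over 27 probes with 0 called, and the smallest p was at HMG1 (-0.36, -0.41 and -0.57; adjusted p = 0.122), the reductase that commits carbon to sterols. Of 21 glycolysis and fermentation probes 1 was called (4.76%, against 2.54% of all probes). It was PDC6, a minor pyruvate decarboxylase, lower at -0.69, -0.61 and -0.31.

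Single members of other lists were called. BAR1, the protease with which a cells degrade alpha-factor, gave -0.71, -0.50 and -0.41 (adjusted p = 0.0021). It was the lowest of 6 genes specific to a cells, whose means ran from -0.54 to -0.10, while 4 genes specific to alpha cells ran from -0.11 to 0.21, with 0 called. The cyclin genes PCL2 (-0.43, -0.40 and -0.45) and CLB4 (-0.37, -0.38 and -0.29) were called lower, and HEM12, of heme synthesis (0.41, 0.34 and 0.29), and COS111, of a family near telomeres (0.21, 0.39 and 0.66), higher. In all, 28 of the 41 lists had 0 members called, 12 had 1 and the mitochondrial ribosome had 2. Over all probes 2.54% were called, so that in a short list 0 calls or 1 call does not set its members apart.

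**Figure D4:**
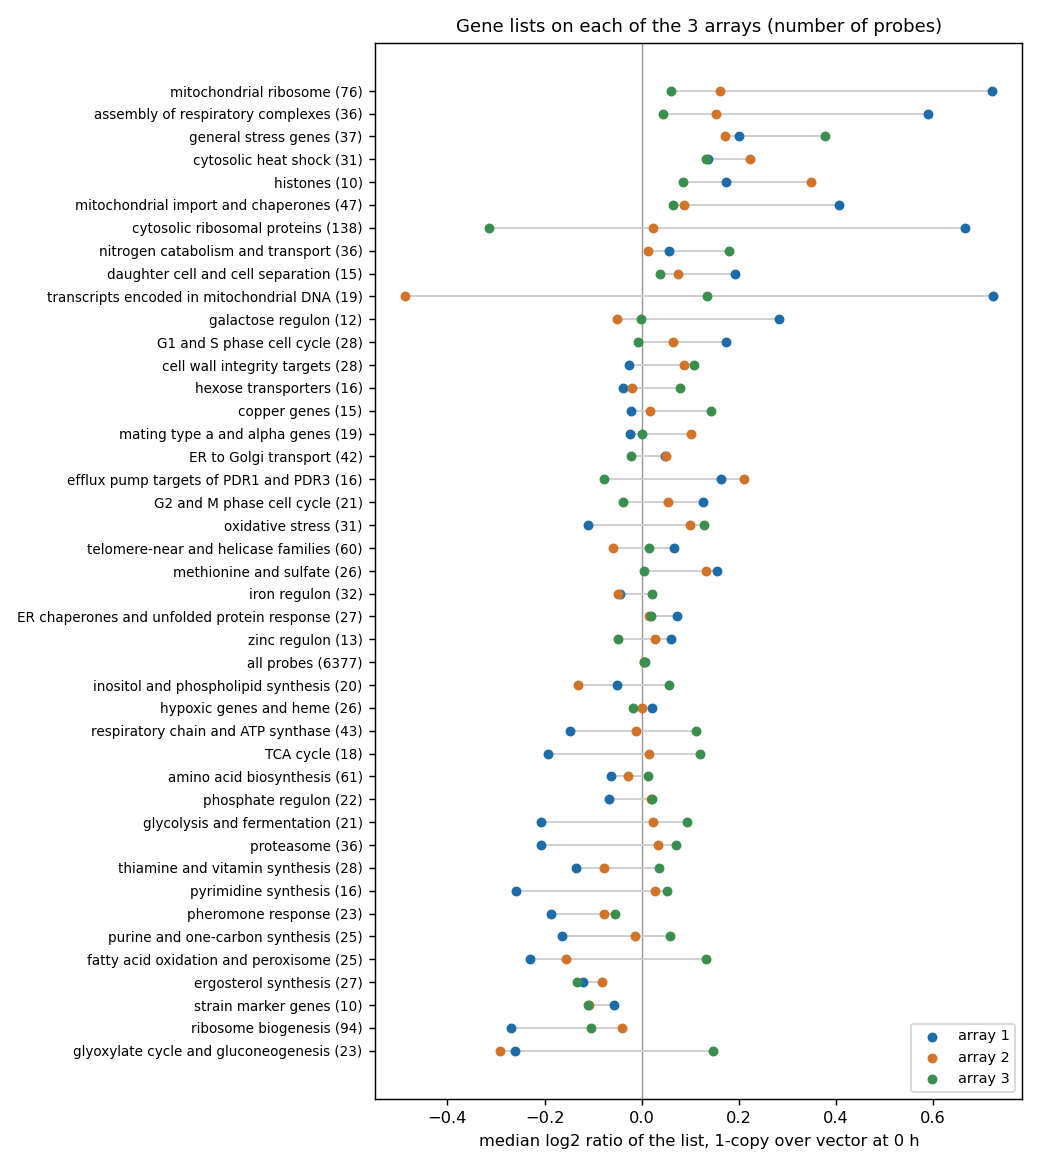
Median log2 ratio of 1-copy over vector at 0 h on each of the 3 arrays for 41 gene lists, the transcripts of mitochondrial DNA and all probes (dots, 1 per array; grey lines join the lowest and highest array; number of probes in brackets). Array 1 lies far to the right for mitochondrial and cytosolic ribosomes, while all probes lie at 0 on each array.

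No nuclear chromosome stood apart in its median ratio. On the 16 nuclear chromosomes the median ratio lay between -0.05 and 0.07 on any array, and running medians over 25 neighbouring genes lay between -0.12 and 0.19. Of the 39 higher probes, 8 were on chromosome XI, which held 311 probes, and 9 on chromosome IV, which held 752. Over all 6377 probes 0.612% were called higher. Whether calls gathered on a chromosome was not tested.

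After induction more probes were called in the same strains: 737 (11.6%) over the 9 arrays of 2 to 6 h, 231 higher and 506 lower, of which 131 were called in the same direction at 0 h (17.8% of the 737 and 80.9% of the 162). The total was 403 without replicate 1, 366 without replicate 2 and 281 without replicate 3. That test pooled 9 arrays against 3 at 0 h. Lowest among genes with a symbol were URA3, the aromatic aminotransferase ARO9 (-1.79), DFP1 (-1.49), UTR1 and YAP3. At 0 h ARO9 gave -0.33, -0.69 and -0.37 and DFP1 -0.22, -2.05 and 0.14, neither called. At 2 to 6 h DFP1 lay between -0.17 and 0.08 on the 3 arrays of replicate 1 and between -3.22 and -1.64 on the other 6, so that its mean was -2.21 without replicate 1, and without replicate 3 it missed the threshold (adjusted p = 0.062).

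Highest at 2 to 6 h were INO1, which makes inositol phosphate for phospholipids (0.72 ± 0.678, SD, n = 9), OPT2, a peptide transporter (0.65 ± 0.135), the formate dehydrogenase FDH1 (0.55 ± 0.803), SDD1 (0.52 ± 0.303) and LRG1, a regulator of Rho1 (0.47 ± 0.532). OPT2 lay between 0.41 and 0.83 on the 9 arrays and had been at 0.52, 0.37 and 0.45 at 0 h, where it was not called (adjusted p = 0.156). FDH1 gave 1.62, 1.73 and 1.39 at 6 h and lay between -0.38 and 0.27 at 2 and 4 h. Thus OPT2 was alike on all arrays, while FDH1 was high at 6 h alone. At 0 h INO1 gave -0.87, -0.42 and 0.34 and FDH1 -1.05, -0.04 and 0.28, and both spanned 0. INO1 missed the threshold without replicate 1 (adjusted p = 0.0642), and SDD1 (0.0684 and 0.142) and LRG1 (0.132 and 0.193) did so without replicate 2 or 3.

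The change between 0 h and the later arrays, in which a fixed dye effect cancels, was called for 1 probe (0.0157%), with 165 at an unadjusted p under 0.05. That probe was YPR197C, which went from -1.80 at 0 h to -0.28 at 2 to 6 h, a change of 1.52 ± 0.258 (SE; adjusted p = 0.000876). On array 1 of 0 h it had been at -0.32. Without replicate 1 the change was called for 10 probes, and without replicate 2 or 3 for 0. The 12 higher genes named by rule at 0 h were all nearer 0 at 2 to 6 h, as were 15 of the 16 lower genes, with URA3 the exception; they had been picked as the extremes of 0 h.

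The difference between 1-copy over vector and 2-copy over vector at 0 h was called for 3 probes (0.047%), with 274 at an unadjusted p under 0.05. Same-numbered arrays of the 2 comparisons deviated together from their group means (correlations across probes of 0.493, 0.332 and 0.141), and with the replicate number as a block 9 probes were called. Without replicate 1 the count was 15, without replicate 2 it was 3 and without replicate 3 it was 5. CUS1, a splicing factor gene of the U2 particle, gave 0.26, 0.09 and 0.04 in 1-copy cells and -1.57, -0.73 and -0.20 in 2-copy cells (means 0.13 and -0.83; difference 0.96 ± 0.184 SE, adjusted p = 0.012). The 2-copy array of replicate 1 was lowest, and without replicate 1 the difference was 0.53 (adjusted p = 0.555). Without replicate 2 it was 1.03 (adjusted p = 0.17). On the arrays that set 1-copy directly against 2-copy cells CUS1 gave 0.17, 0.27 and 0.40 (mean 0.28, adjusted p = 0.252).

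YPR197C was lower in 1-copy than in 2-copy cells by this measure (-1.80 and -0.30), and so was YPL197C (-0.09 and 1.01), which gave 0.68, 0.06 and -1.02 on the 3 arrays of 1-copy over vector. The direct arrays of 1-copy over 2-copy gave -0.29 for YPR197C and -0.11 for YPL197C, neither called, with loop remainders of -1.21 and -0.998. The difference at YPR197C missed the threshold without replicate 2 or 3 (-1.06 and -1.19) and that at YPL197C without replicate 3 (-0.30). Neither probe matched a gene of the table.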

How the data were processed

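Two-colour arrays of yeast RNA were analysed from the deposited log2 ratios, 1 per probe and array, which the authors had normalised with limma, per the submitters' processing notes; version, background correction and settings: not given in the sources used here. Log base and direction (Cy5 over Cy3) were read from limma's convention and the order of the labels. Intensities were not analysed here, so signal over background is unknown; the number of arrays limits the precision. Of 6377 probes, 5644 matched the RefSeq table (assembly R64) by locus tag, 196 after a hyphen was written and 537 not.

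Groups came from the array titles. limma 3.58.1 in R 4.3.3 fitted 1 mean per group (30 groups, 93 arrays; 67.6 degrees of freedom, 4.56 from the prior), with two-sided moderated tests of group means against 0 or of their differences and Benjamini-Hochberg adjustment over all probes. Values are mean ± SD over arrays. The fit was checked on simulated data. No label says if a culture served several comparisons. The p-values rest on the spread between arrays of a group, pooled over the 30 groups, while an SD is that of the arrays named. Where the SD is large, the p does not measure it.

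Genes, gene lists (41, with 8 members unmatched) and tests were chosen with earlier results of these data known, and lists are described by counts and medians without a test. Genes named by rule had a symbol, were called and had 1 sign on 3 arrays: the 12 highest, the 12 lowest and the 10 of smallest p at 0 h, besides those called with a dye term, marker and galactose genes, up to 4 members of each list by p, up to 5 and 5 per other test and chromosomal neighbours. Alternatives were a dye term (all or time-course arrays), array scaling, array weights, fewer arrays, a replicate block, matched probes alone and leaving out each replicate number. Residuals of same-numbered arrays correlated above 0.1 for all 3 numbers between 1-copy and 2-copy over vector at 0 h, which was taken as pairing; between 0 h and later arrays the correlations ran from -0.227 to 0.154.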

Additional observations from a re-analysis of the deposited data

Results flagged for a closer look

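The results below are differences between groups that passed limma's test of the difference itself (adjusted p under 0.05). The change of 1-copy over vector from 0 h to 2 to 6 h at YPR197C was 1.52, from -1.80 (arrays at -0.32, -2.77 and -2.30) to -0.28 (9 arrays between -0.56 and -0.04). The 1-copy minus 2-copy difference over vector at 0 h was -1.50 at YPR197C, whose mean in 2-copy cells was -0.30, while the direct arrays of 1-copy over 2-copy gave -0.29. At YPL197C the same difference was -1.10, with means of -0.09 and 1.01, while the direct arrays gave -0.11. At CUS1 it was 0.96, with means of 0.13 and -0.83, while the direct arrays gave 0.28. It was 0.53 without replicate 1. The 4 differences kept their direction in all alternatives run. None was past the threshold in the fits to the arrays compared alone or to the time-course arrays. The test for a single outlying value was not run in groups of 3 arrays. In the fit with array weights, the 3 arrays of 1-copy over vector at 0 h had weights of 0.651, 4.81 and 1.06.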

How the results depend on the processing

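All 28 genes named by rule at 0 h had 1 direction under every alternative run. The 162 calls at 0 h became 3 with a dye term, 1 with that term on the time-course arrays, 506 with array scaling, 1789 with array weights, 2 with a fit on the compared arrays only, and 30 to 73 without 1 replicate. The 737 calls at 2 to 6 h became 2, 1, 1921, 2400 and 1925 in the same order and 281 to 403 without 1 replicate. The 1 call for the change from 0 h became 2, 9, 14, 302 and 2 in that order, 0 with the time-course arrays or the matched probes alone and 0 to 10 without 1 replicate. The 3 calls for 1-copy minus 2-copy became 24 with a dye term, 7 with array scaling, 51 with array weights, 0 in a fit to their own arrays or to the time-course arrays, 1 with matched probes and 3 to 15 without 1 replicate. The 0 calls for the loop remainder became 1 with array scaling, 26 with array weights and 0 to 23 without 1 replicate. A dye term cannot be fitted to the remainder. The causes were not tested, except that fewer arrays or probes entered some fits.

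The replicate number was also fitted as a block, because correlated residuals were taken as pairing between 1-copy and 2-copy over vector. No label states such a pairing. The counts with the block were 164 at 0 h, 739 at 2 to 6 h, 1 for the change, 9 for 1-copy minus 2-copy and 0 for the remainder. The block ended the call of 1 of the 28 genes named at 0 h. Among these 28 genes, 25 missed the threshold with a dye term and 27 in the fit to their own arrays. Signal over background, which limits low-signal probes, was not known.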
